A study of Mus musculus with 8 samples.

Results

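The genes described here code for the subunits of oxidative phosphorylation, in the nucleus accumbens of mice given morphine or saline. Members were the rows of the expression table whose mouse symbol, assigned by Ensembl identifier, names a mitochondrially encoded subunit (mt-Nd, mt-Co, mt-Atp or mt-Cytb) or a nuclear gene of the Nduf, Sdh, Uqcr, Cox4 to Cox8 or Atp5 series. This gave 99 of 22337 rows, 13 of them encoded in mitochondrial DNA and 86 in the nucleus. The symbol Atp5o stood on 2 of the nuclear rows, 1 of which was listed at 0 in every library. Another nuclear row, Ndufb1-ps, is annotated as a non-coding RNA and was kept because its symbol fits the rule. Usmg5, which other symbol lists place among the complex V subunits, fell outside the name rule and was not counted.

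The study compared 4 morphine with 4 saline libraries of total RNA from the nucleus accumbens, which belongs to the ventral striatum and takes part in reward. All came from male C57BL/6 mice, and the series' title calls the morphine exposure chronic, and saline injection is the vehicle control. Morphine is an opioid that acts mainly at the mu receptor. The sources used here do not give age, dose, schedule or when the tissue was taken. Nor do the labels say whether each replicate was its own animal, so a p-value speaks only of library-to-library spread, some of which may be technical. Levels are in FPKM, that is, fragments counted per kilobase of a transcript and scaled to the library's mapped total. Read depth is unknown.

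Oxidative phosphorylation runs through 4 complexes that pass electrons from NADH (complex I) or succinate (complex II) by way of complex III to oxygen at complex IV, and through ATP synthase (complex V), which uses the resulting proton gradient. Complexes I, III, IV and V are each built from products of both genomes. The mitochondrial genes are copied from a compact circular genome as long transcripts that are cut into single messages, whereas each nuclear subunit gene has its own promoter and its protein is imported. Neurons depend heavily on this pathway for ATP. Complex II is wholly nuclear encoded.

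Some mitochondrial genes share bases, which matters for reading their values, because a read from a shared stretch fits both genes. The stretches below are from GENCODE M21 (GRCm38, 1-based), plus strand, with the shared bases in capitals and flanks of 20 bases in lower case. The mt-Atp8 and mt-Atp6 genes, both on the plus strand, share 43 bases at chrM:7927-7969, and mt-Nd4l and mt-Nd4 share 7 at chrM:10167-10173. The genes mt-Nd5 and mt-Nd6 lie on opposite strands and share 14 bases at chrM:13552-13565.
mt-Atp8 into mt-Atp6: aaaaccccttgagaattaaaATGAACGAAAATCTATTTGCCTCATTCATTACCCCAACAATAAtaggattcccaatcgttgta
mt-Nd4l into mt-Nd4: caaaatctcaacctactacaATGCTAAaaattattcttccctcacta
mt-Nd5 against mt-Nd6: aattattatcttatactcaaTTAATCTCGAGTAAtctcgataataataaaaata
No strand marking is named in the protocol, so reads of mt-Nd6, the one subunit gene on the minus strand, cannot be told from antisense reads of the plus-strand transcript. The shortest coding sequences among the 13 were those of mt-Atp8, with 201 nucleotides, and mt-Nd4l, with 294. The coefficient of variation of mt-Atp8 was 45.7% in saline and 43.6% in morphine, and that of mt-Nd4l 18.5% and 45.3%, the latter with morphine replicate 2 at 366.1 FPKM. For mt-Nd5, the longest with 1821 nucleotides, it was 29.5% and 7.82%.

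Saline replicate 3 stood apart in its neuronal marker sums, and saline replicate 1 in the nuclear members described below. The 15 striatal projection neuron markers summed to 1238, 1075, 5212 and 1293 FPKM in saline replicates 1 to 4. In morphine they summed to between 283 and 431.1 FPKM. Of the 15, 11 passed the test as lower and none was at 0 in all libraries. The 10 cortical glutamatergic markers summed to 180.65, 178, 42.7 and 182.2 FPKM in saline replicates 1 to 4. Their morphine sums lay between 205.6 and 261.2. In a bulk sample, fewer cells of a type and less RNA per cell cannot be told apart. The summed astrocyte markers were 1046 to 1380 FPKM in saline and 758.6 to 976.3 in morphine, the oligodendrocyte markers 3098 to 3520 and 1939 to 3089, and the endothelial markers 115.7 to 134.3 and 82 to 94.8. By limma 1 of 9 tested cortical markers passed as higher. Of the others, 2 of 8 astrocyte, 0 of 7 oligodendrocyte, 2 of 7 endothelial, 0 of 6 microglial and 2 of 6 blood markers passed as lower. Over all tested genes 1.48% passed as lower and 1.04% as higher. At an unadjusted limma p under 0.05, 14 striatal, 4 astrocyte, 6 endothelial and 3 oligodendrocyte markers were lower. So were 2 blood and 0 microglial markers, beside 10.1% of all tested genes. At that level 4 cortical markers were higher, beside 1256 of 12536 genes. Microglial markers, 226 to 318 in saline and 254 to 262.1 in morphine, and blood markers, 138.8 to 373.8 in saline and 58.5 to 306.6 in morphine, overlapped. The part of tissue makeup in the results below was not tested. Some values are also given with the striatal markers as a covariate. That covariate, the mean log2(FPKM + 1) of the 15 markers, was 4.80 to 7.23 in saline and 2.96 to 3.59 in morphine. It did not overlap between groups, so such a fit cannot part tissue makeup from treatment.

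Each of the 13 mitochondrial members had a lower mean in the morphine libraries, with log2 changes between -0.91 and -0.36 and a median of -0.59. The nuclear members had a median of 0.07, beside 0.01 over all 12536 genes tested. One mitochondrial gene, mt-Co1, passed the test (limma on log2(FPKM + 1), Benjamini-Hochberg adjusted p under 0.05 over all genes tested); it fell. No nuclear member passed. Among all genes tested 1.48% passed as lower and 1.04% as higher, 186 and 130 genes; with mitochondrial genes removed and the rest rescaled these were 211 and 77.

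Summed over the 13 genes, mitochondrial messages came to 58804, 60363, 43609 and 61725 FPKM in saline replicates 1 to 4, and to 39830, 29654, 37551 and 37518 FPKM in morphine replicates 1 to 4. The groups did not overlap, although saline replicate 3 lay much nearer to the morphine libraries than the other saline libraries did. As a share of all FPKM in a library, these genes took 9.09 to 12.6% in saline and 6.09 to 7.94% in morphine. The 86 nuclear rows summed to 33167, 24341, 21750 and 22641 FPKM in saline and to 28493, 23663, 26153 and 27168 FPKM in morphine. Here the groups overlapped, with saline replicate 1 above every morphine library and saline replicates 3 and 4 below them all.

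The ratio of the sums is not affected by how a library is scaled. It was 1.77, 2.48, 2.00 and 2.73 in saline replicates 1 to 4 and 1.40, 1.25, 1.44 and 1.38 in morphine replicates 1 to 4. Every saline ratio was above every morphine ratio, with means of 2.25 ± 0.435 and 1.37 ± 0.0792 (SD, n = 4 each). The log2 ratio, morphine minus saline, was -0.70, and it lay between -0.80 and -0.60 when each library was left out in turn. A score over chosen members is given here with no p-value. Saline replicate 3, with the highest striatal marker sum, had the lowest saline mitochondrial sum and a ratio between those of replicates 1 and 2. The part of tissue makeup in the ratio was not tested.

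**Figure D1:**
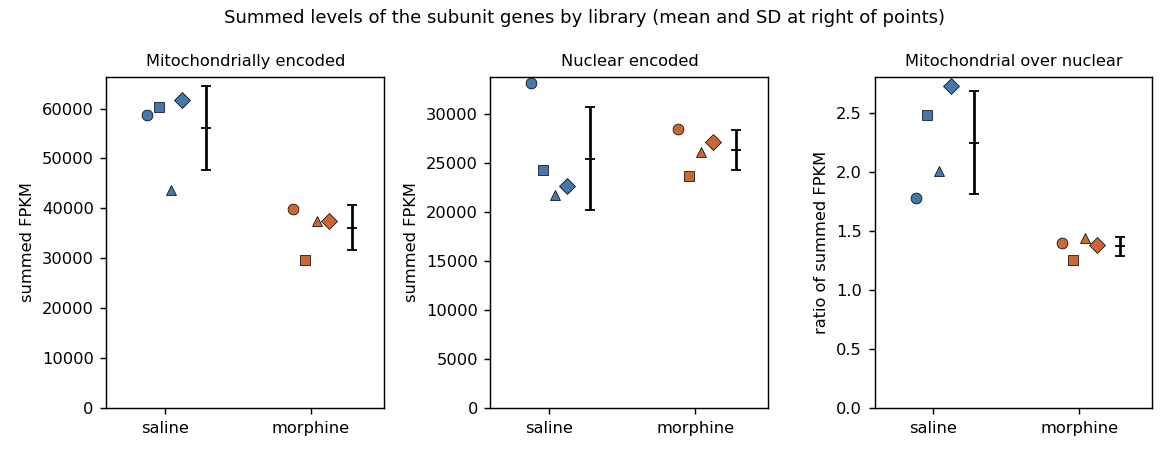
Summed FPKM of the 13 mitochondrially encoded genes (left), summed FPKM of the 86 nuclear rows (middle) and their ratio (right) in each library, with the mean and SD beside the points and 1 marker shape per replicate number. The mitochondrial sums and the ratio do not overlap between groups (ratio 1.77 to 2.73 in saline, 1.25 to 1.44 in morphine), and the nuclear sums do.

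Within single complexes the same ratio was taken between the subunits each genome supplies. In complex IV, the cytochrome c oxidase, it was 2.14 to 3.34 in saline and 1.58 to 1.87 in morphine. Complex III gave 2.21 to 3.48 in saline and 1.74 to 1.91 in morphine. Complex I ratios were 1.41 to 2.55 in saline and 0.916 to 1.26 in morphine. In these 3 complexes the groups did not overlap. In complex V the lowest saline ratio, 1.48 in replicate 3, was below that of morphine replicate 1, 1.498, so the groups overlapped by a small margin.

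The catalytic core of complex IV is made of mt-Co1, mt-Co2 and mt-Co3. The gene mt-Co1 (ENSMUSG00000064351, chromosome M, 5328 to 6872, plus strand, GRCm38), whose protein carries the site of oxygen reduction, had 6593, 8014, 5941 and 7947 FPKM in saline and 4149, 4086, 4396 and 4110 FPKM in morphine. Every saline value was above every morphine value, and the morphine values were close to each other. The log2 change was -0.76 ± 0.15 (SE; 95% interval -1.09 to -0.42; limma adjusted p = 0.0381), seen in 4 of 4 morphine libraries. That call held without saline replicate 3 (adjusted p = 0.0218 with 4 against 3 libraries) and was lost on leaving out any other single library, with adjusted p between 0.057 and 0.119 and log2 changes between -0.79 and -0.70. It was also lost without a filter on low values (adjusted p = 0.216), with the replicate number as a block (0.102) and with the striatal markers as a covariate (-1.10, adjusted p = 0.217).

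The gene mt-Co2, whose protein takes electrons from cytochrome c, had 7015, 7074, 5284 and 7043 FPKM in saline and 4803, 3841, 4571 and 4516 FPKM in morphine. Saline replicate 3 was the low saline library, and the groups did not overlap (log2 change -0.57 ± 0.16 SE, limma adjusted p = 0.0868). The third core gene, mt-Co3, had 6398 to 8788 FPKM in saline and 5272 to 5764 in morphine (-0.56 ± 0.16, adjusted p = 0.0885). Its groups did not overlap either, and neither gene passed the test.

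**Figure D2:**
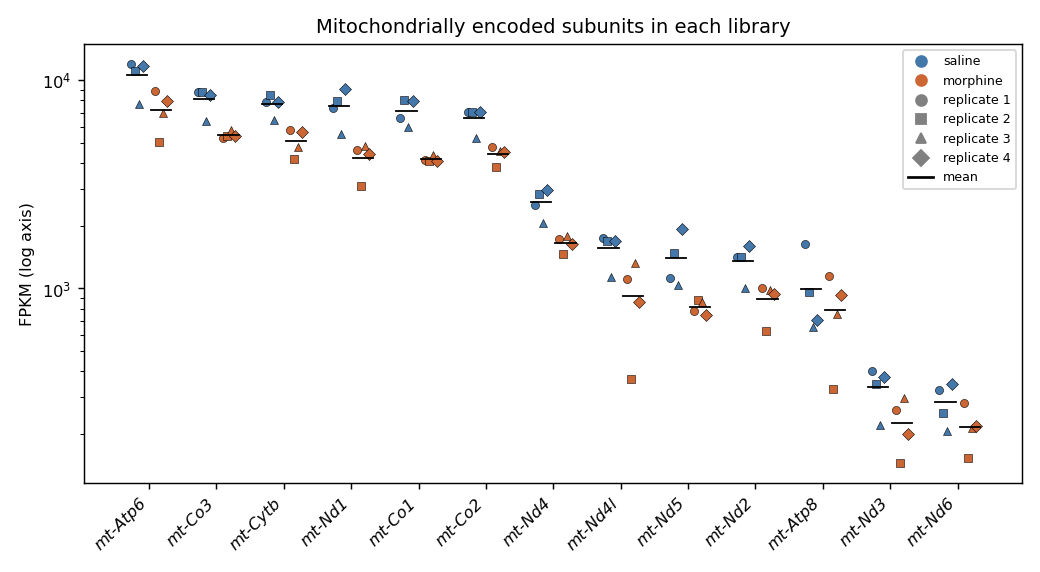
FPKM (log axis) of each of the 13 mitochondrially encoded genes in each library, ordered by saline mean, with a bar for the group mean and 1 marker shape per replicate number. The morphine mean is below the saline mean for every gene, saline replicate 3 (triangles) is the lowest saline library throughout, and mt-Co1 has 4 morphine values between 4086 and 4396.

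The 7 mitochondrial genes of complex I code for its proton-pumping membrane arm. The gene mt-Nd4 had 2526, 2853, 2055 and 2959 FPKM in saline and 1726, 1459, 1784 and 1628 FPKM in morphine. The groups did not overlap, and the adjusted p lay just above the threshold (log2 change -0.65 ± 0.15 SE, limma adjusted p = 0.0507). It passed with a pseudocount of 0.1, a filter at 5 FPKM, equal library totals or median-of-ratios scaling (adjusted p between 0.0441 and 0.0494) and without saline replicate 3 (0.0218), and it did not pass under the other alternatives. The gene mt-Nd1, which codes for a subunit next to the quinone site, had 7402, 7980, 5521 and 9067 FPKM in saline and 4629, 3122, 4837 and 4418 FPKM in morphine (-0.81 ± 0.20, adjusted p = 0.0639). The groups did not overlap for mt-Nd1, nor for mt-Nd5, with 1035 to 1936 FPKM in saline and 743.2 to 875.8 in morphine (-0.73 ± 0.19, adjusted p = 0.0709).

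In the other 4 genes of complex I the groups overlapped. The gene mt-Nd2 had 1006 to 1604 FPKM in saline and 627.1 to 1009 in morphine (-0.61 ± 0.19 SE, limma adjusted p = 0.112), and mt-Nd3 had between 220.5 and 400.5 and between 144.7 and 297.5 (-0.59 ± 0.24, adjusted p = 0.206). The largest change and one of the largest errors belonged to mt-Nd4l, with 1756, 1692, 1138 and 1698 FPKM in saline and 1105, 366.1, 1333 and 857.1 in morphine. Morphine replicate 2 was far below the rest and morphine replicate 3 was above the lowest saline library (-0.91 ± 0.34 SE, limma adjusted p = 0.179). Without morphine replicate 2 the change was -0.52, so its place as the largest rests on that library. The minus-strand gene mt-Nd6 had 207.8 to 347.4 FPKM in saline and 153.3 to 283.1 in morphine (-0.39 ± 0.21, adjusted p = 0.322), a 95% interval from -0.84 to 0.07, and the change was -0.23 without morphine replicate 2.

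Complex III takes a single mitochondrial gene, mt-Cytb, the cytochrome b that holds both quinone-binding sites. It had 7846, 8498, 6464 and 7857 FPKM in saline and 5783, 4208, 4771 and 5627 FPKM in morphine. The groups did not overlap (-0.59 ± 0.17 SE, limma adjusted p = 0.0883). In complex V, mt-Atp6, which forms part of the proton channel, was the most abundant of the 13 in both groups, with 11985, 11042, 7690 and 11699 FPKM in saline and 8885, 5046, 6977 and 7952 in morphine. Saline replicate 3 lay inside the morphine range (-0.56 ± 0.22 SE, adjusted p = 0.193). Its neighbour mt-Atp8 had 1636, 965.4, 650.7 and 705.0 FPKM in saline and 1143, 330.8, 758 and 927 in morphine, so the groups overlapped widely (-0.36 ± 0.39 SE, adjusted p = 0.649; 0.01 without morphine replicate 2).

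In 7 of the 13 mitochondrial genes (mt-Nd1, mt-Nd4, mt-Nd5, mt-Cytb, mt-Co1, mt-Co2 and mt-Co3) every morphine value lay below every saline value, where 6.1% of all tested genes did so and 6.56% were arranged the opposite way. At an unadjusted p under 0.05, 11 of the 13 were lower, beside 10.1% of all tested genes. These genes come from shared transcripts and the same 8 libraries, so they are not 13 separate observations. All 13 genes had their lowest saline value in replicate 3. Morphine replicate 2 had the lowest value of all 8 libraries for 11 of the 13, mt-Co3 being lowest in morphine replicate 1 and mt-Nd5 in morphine replicate 4.

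Without saline replicate 3, 6 mitochondrial genes passed as lower (mt-Co1, mt-Co2, mt-Co3, mt-Nd1, mt-Nd4 and mt-Nd5), and the median log2 change was -0.75. Over all genes in that fit 151 of 12393 passed as lower. Leaving out any other single library gave 0 calls among the 13, with medians between -0.67 and -0.51. Between 8 and 12 of the 13 were then lower at an unadjusted p under 0.05 (limma). Beside them, all genes gave from 949 of 12385 (saline replicate 2 dropped) to 1274 of 12414 (saline replicate 1 dropped) lower. The fit that dropped saline replicate 2 called no gene of any kind, nor did those dropping morphine replicates 3 and 4. The remaining fits called between 39 and 212 genes lower. With the striatal markers as a covariate the mitochondrial median was -1.06, with 0 calls and 11 lower at an unadjusted p under 0.05, beside 572 of 12536 over all genes. The order of the 13 by mean FPKM differed little between groups: 8 held the same rank and 12 moved by at most 1 rank. The share of the mitochondrial sum taken by mt-Atp6 averaged 18.8% in saline and 19.8% in morphine, that of mt-Nd1 13.3% and 11.7%, and that of mt-Co1 12.7% and 11.7%.

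Among the nuclear rows, 82 of 86 passed the filter on low values (at least 1 FPKM in at least 4 libraries). Cox7b2, Cox8b, Cox8c and the empty Atp5o row did not. Of the 82, 52 had a log2 change above 0 and 30 below it, where 52% of all tested genes lay above 0. No nuclear member passed limma's test in either direction, and at an unadjusted p under 0.05 there were 2, both lower, beside 20.1% of all tested genes in either direction. The lowest adjusted p was 0.0728. Their standard errors lay between 0.10 and 0.31 on the log2 scale, beside 0.15 to 0.39 for the mitochondrial genes. For 76 of the 82 the 95% interval of the change lay wholly above -0.59, the mitochondrial median, and for 80 it held 0. That median comes from the same libraries and has an error of its own, so the count is no test between the genomes. Without saline replicate 1 the nuclear median was 0.20, with 68 of 82 above 0, and at an unadjusted p under 0.05 there were then 21 higher and 2 lower. Over all 12414 genes of that fit 1391 were higher and 1274 lower at that level. Without saline replicate 3 the nuclear median was -0.01, with 40 above 0. With the striatal markers as a covariate it was -0.14, with 21 of 82 above 0 and medians of -0.12, -0.11, -0.36 and -0.13 in complexes I, III, IV and V, and with mitochondrial genes removed and the rest rescaled 0.03, with 44 above 0.

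**Figure D3:**
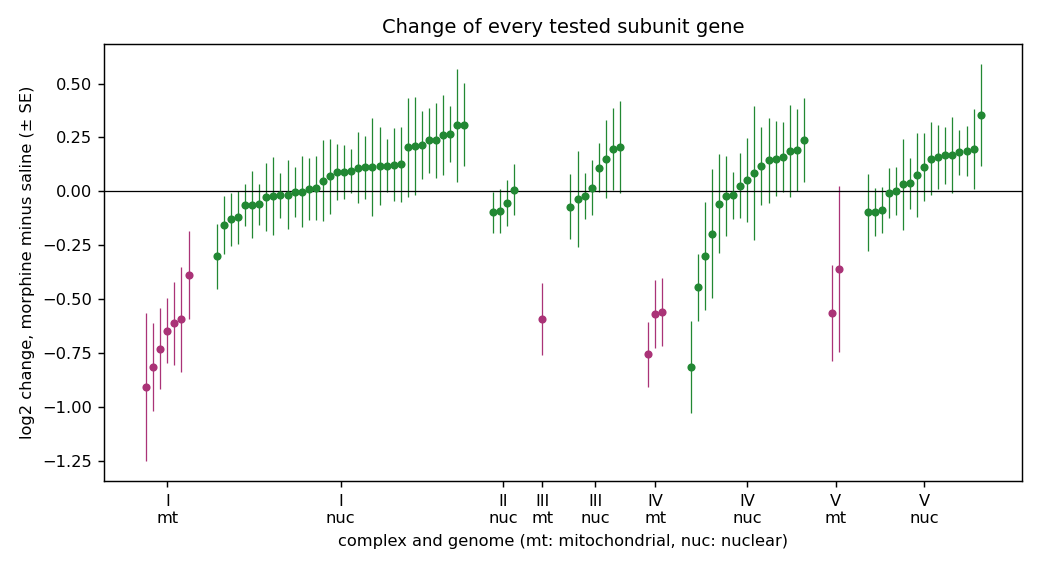
Log2 change (morphine minus saline, of log2(FPKM + 1)) with its standard error for each tested subunit gene, grouped by complex and by genome and ordered within each group. The 13 mitochondrial genes lie between -0.91 and -0.36, and the nuclear genes are spread around 0 with Cox7a1 at -0.82 as the lowest.

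Complex I has 36 nuclear members here, of which 23 had a change above 0 and 13 below (median 0.09). By the parts of the enzyme, the median was 0.00 in the N module, which oxidises NADH (10 genes, 4 above 0), and -0.03 in the Q module, which reduces quinone (5 genes, 1 above 0). In the membrane arm it was 0.12 in the proximal part (10 genes, 8 above 0) and 0.20 in the distal part (11 genes, 10 above 0). The 11 include Ndufb1-ps, annotated as a non-coding RNA, with a change of 0.31 ± 0.26 (SE, limma adjusted p = 0.561). No gene of these parts passed, and none reached an unadjusted p under 0.05. The membrane arm medians turned with the striatal markers as a covariate, to -0.08 in the proximal part (2 of 10 above 0) and -0.16 in the distal part (4 of 11). They were 0.07 and 0.13 without saline replicate 3 and 0.29 and 0.37 without saline replicate 1. In the latter fit 3 and 6 genes were higher at an unadjusted limma p under 0.05, as were 1391 of all 12414 genes tested. The difference between the parts was not tested. The highest nuclear complex I level belonged to Ndufb9, with 804.6, 678.4, 515.9 and 610.9 FPKM in saline and 677.2, 582.8, 694.9 and 649.4 FPKM in morphine. Its groups overlapped fully (0.01 ± 0.14 SE; 95% interval -0.31 to 0.33; limma adjusted p = 0.975). Ndufb8 stood next, with 348.3 to 545.8 FPKM in saline and 296.7 to 449.4 in morphine.

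The extremes of nuclear complex I were Ndufb4, a distal arm subunit, and Ndufa1, a small subunit of the proximal arm. Ndufb4 had 200.4, 118, 99.1 and 123.3 FPKM in saline and 182.6, 146.5, 149.9 and 171.1 in morphine (0.31 ± 0.19 SE, limma adjusted p = 0.402). Only saline replicate 1 was above the morphine values. Ndufa1 had 438.4, 320.8, 371.9 and 292.1 FPKM in saline and 335.6, 242.9, 266.6 and 304.5 in morphine (-0.30 ± 0.15, adjusted p = 0.296), with overlapping groups.

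Complex II, succinate dehydrogenase, links the tricarboxylic acid cycle to the chain and has no mitochondrial gene. Its flavoprotein gene Sdha had 213.4, 203.2, 251.5 and 213.7 FPKM in saline and 205.5, 215.0, 190.7 and 214.2 in morphine (-0.09 ± 0.10 SE, limma adjusted p = 0.664). The iron-sulfur subunit gene Sdhb had 246.3 to 326 FPKM in saline and 255.2 to 313.8 in morphine. The membrane anchor genes Sdhc and Sdhd had means of 113.6 ± 10.0 and 116.2 ± 9.15 FPKM with saline, against 105.9 ± 2.77 and 112.1 ± 10.5 with morphine (SD over 4 libraries). The 4 changes lay between -0.10 and 0.01, with overlapping groups and 95% intervals within -0.32 and 0.27. Summed over the complex, the levels were 730.1 ± 57.2 FPKM with saline against 705.1 ± 41.4 with morphine (SD over 4 libraries), a ratio of 0.966.

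Of 8 nuclear members of complex III, which passes electrons to cytochrome c, 5 were above 0 (median 0.06). Uqcr11, a small subunit, had the highest level, with 908.1, 676.8, 538.9 and 461.9 FPKM in saline and 740.9, 439.3, 642.7 and 664.9 in morphine (-0.03 ± 0.22 SE, limma adjusted p = 0.953). Uqcrq had 321.3 to 527.4 FPKM in saline and 322.1 to 516.3 in morphine. The most positive change was that of Uqcr10 (0.21 ± 0.21, adjusted p = 0.636) and the most negative that of Uqcrh, the hinge protein (-0.07 ± 0.15, adjusted p = 0.834).

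Complex IV has 20 nuclear rows, 17 of them tested, with 10 above 0 (median 0.05). Cox4i1, the common form of subunit 4, was the most abundant nuclear member of the complex, with 2072, 1669, 1286 and 1598 FPKM in saline and 1724, 1578, 1648 and 1699 FPKM in morphine. Means were 1656 ± 323.6 and 1663 ± 64.4 (SD, n = 4 each), and the change was 0.03 ± 0.15 (SE; 95% interval -0.31 to 0.36; limma adjusted p = 0.948). The saline values spread on both sides of the morphine values. Cox8a had 913.8 to 1669 FPKM in saline and 1038 to 1561 in morphine, and Cox7a2, with the most positive change in the complex, had between 261.3 and 537.2 and between 386.2 and 436.9 (0.24 ± 0.19, adjusted p = 0.536).

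The isoforms of complex IV subunits that are limited to some tissues had low levels here. Cox7a1, the heart and muscle form of subunit 7a, had 4.46, 4.24, 3.44 and 2.89 FPKM in saline and 2.63, 2.26, 1.10 and 1.07 in morphine. Every saline value was above every morphine value (-0.82 ± 0.21 SE, limma adjusted p = 0.0728). Cox4i2, the form of subunit 4 known from lung, had 5.78, 4.77, 4.04 and 4.13 FPKM in saline and 3.77, 3.26, 3.26 and 2.40 in morphine, again without overlap (-0.45 ± 0.15 SE, adjusted p = 0.148). These were the 2 nuclear members with an unadjusted p under 0.05, and neither passed after adjustment. Endothelial markers were lower in the same morphine libraries (82 to 94.8 against 115.7 to 134.3 FPKM summed), and their part in these 2 values was not tested.

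The other such isoforms overlapped between groups. Cox6a2, known from heart and muscle, had 10.5 to 17.5 FPKM in saline and 11.1 to 21 in morphine (0.19 ± 0.21 SE, limma adjusted p = 0.678). Cox6b2, the testis form, had 1.09 to 5.35 FPKM in saline and 1.34 to 2.83 in morphine, and Ndufa4l2 between 1.04 and 4.10 and between 1.20 and 2.23. Cox7b2 reached 0.13 to 0.90 FPKM in saline and 0.53 to 1.24 in morphine. Cox8b was listed at 0 in 3 saline libraries and 1 morphine library and did not exceed 0.78 FPKM, and Cox8c was listed at 0 in all 8.

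In complex V, 17 of 18 nuclear rows were tested and 13 of them were above 0 (median 0.11). Atp5b, the catalytic beta subunit, had 1329, 1226, 1306 and 1174 FPKM in saline and 1104, 1222, 1132 and 1255 in morphine (-0.10 ± 0.11 SE; 95% interval -0.34 to 0.15; limma adjusted p = 0.675). Atp5g1, one of 3 genes for the ring-forming c subunit, had 393.4 to 652.8 FPKM in saline and 442 to 644.9 in morphine. Because the 3 genes make near-identical mature proteins, reads may be shared among them. The most positive change of all nuclear members was that of Atp5k, a small subunit of the membrane part, with 357.4, 207.5, 161.1 and 175.6 FPKM in saline and 341.6, 210.2, 278.6 and 280.6 in morphine (0.35 ± 0.24, adjusted p = 0.443). Without saline replicate 1, which had its highest value, the change was 0.60, without saline replicate 3 it was 0.22, and with the striatal markers as a covariate -0.13. The most positive changes of the other complexes moved likewise: Ndufb4 was 0.51, 0.18 and -0.14 under the same 3 settings, Uqcr10 0.43, 0.12 and -0.08, and Cox7a2 0.45, 0.11 and -0.27. Atp5j, a stalk subunit, had the most negative change of the complex (-0.10 ± 0.18, adjusted p = 0.807).

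Levels of the nuclear members differed by gene length within single libraries of both groups. Of the 81 tested members with a coding sequence, 66 had their highest value of all 8 libraries in saline replicate 1. The 47 with a longest coding sequence under 450 nucleotides, a boundary chosen after the values were seen, stood at a median of 0.47 (log2) above their own median level in saline replicate 1 and at -0.28 in saline replicate 3. The 34 longer ones stood at 0.24 and -0.01. In morphine replicates 1 and 2 the short members stood at 0.24 and -0.16 and the longer ones at 0.04 and -0.07. Among all other tested genes, in saline replicates 1 and 3, the short ones (805) stood at 0.21 and -0.14 and the long ones (11613) at -0.03 and 0.01. Across the 81 nuclear members with a coding sequence, Spearman's rho between coding length and the excess in saline replicate 1 over the mean of the other saline libraries was -0.75, against -0.50 across 12418 other genes. These are correlations across genes of the same libraries and carry no test. The morphine change was less related to length (rho = -0.28 across the members, -0.04 across the other genes), with a median of 0.11 in the short and 0.00 in the long members. The part of length in the nuclear values was not tested further.

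**Figure D4:**
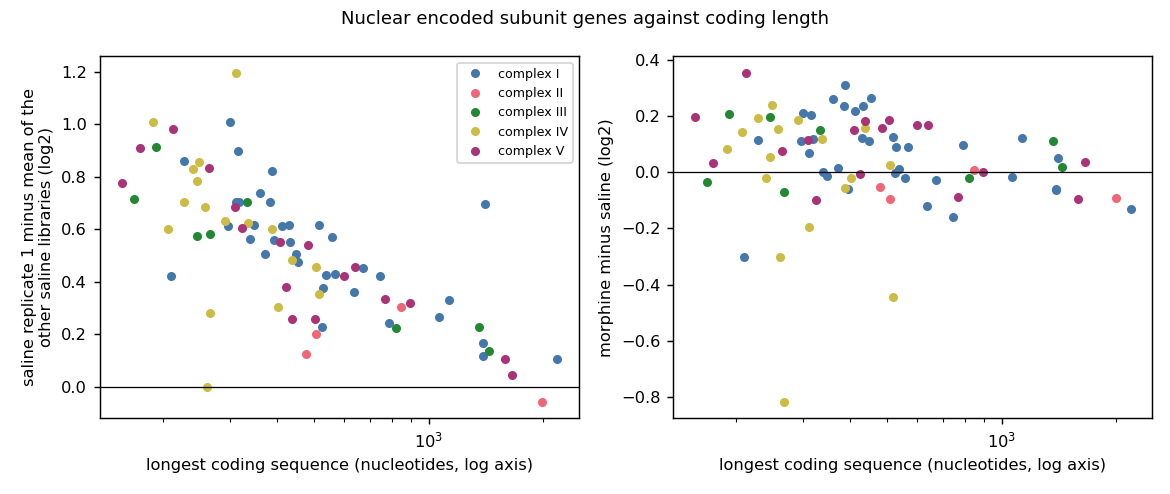
Each point is 1 of 81 tested nuclear subunit genes, coloured by complex, against the length of its longest coding sequence (log axis). Left, the log2 excess of saline replicate 1 over the mean of the other saline libraries, which is larger in shorter genes (rho = -0.75); right, the log2 change with morphine, which is spread around 0 at all lengths (rho = -0.28).

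Promoters of nuclear subunit genes are known to carry sites for the respiratory factor NRF1 and for ETS-family factors such as GABP. Of 85 nuclear symbols 66 had a promoter in the RefSeq set (GRCm38.p6, 250 bases before to 50 after the start). On either strand, 24.2% of the 66 held the NRF1 letters (GCGCA, then any base, then GCGC), beside 10.5% of 9773 other tested genes and 4.78% of all 27025 promoters. The ETS letters CCGGAAG were in 22.7%, 17.9% and 9.12% of the same sets. Neither pattern contains the other. A match describes the letters only. The 16 tested members with the NRF1 letters had a median change of 0.12 (11 above 0) and the 48 without them 0.07 (29 above 0).

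The promoters of the nuclear members with the most positive and the most negative change are printed below, picked by those changes. They are from RefSeq, 5′ to 3′ on the strand of the gene, with NRF1 and ETS letters in capitals. The Atp5k window, chr5:108434350-108434649 on the minus strand, held both. The Cox7a1 window, chr7:30183921-30184220 on the plus strand, held neither pattern, which says nothing of sites outside it. Among the most positive members of the other complexes, Ndufb4 held the NRF1 letters and Sdhb the ETS letters. Uqcr10 and Cox7a2 held neither. Whether the letters go with the changes was not tested.
Atp5k: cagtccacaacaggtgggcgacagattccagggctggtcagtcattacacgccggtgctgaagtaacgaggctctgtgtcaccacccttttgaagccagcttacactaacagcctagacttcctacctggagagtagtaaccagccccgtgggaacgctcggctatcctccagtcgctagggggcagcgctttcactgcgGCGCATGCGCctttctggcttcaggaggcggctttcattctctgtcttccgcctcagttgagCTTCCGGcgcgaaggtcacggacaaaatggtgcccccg
Cox7a1: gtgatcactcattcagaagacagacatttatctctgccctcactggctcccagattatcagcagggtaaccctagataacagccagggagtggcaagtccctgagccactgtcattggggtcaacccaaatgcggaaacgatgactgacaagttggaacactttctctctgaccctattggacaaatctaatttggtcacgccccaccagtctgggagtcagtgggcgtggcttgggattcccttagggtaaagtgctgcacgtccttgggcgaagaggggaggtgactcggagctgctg

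Genes that serve the same pathway were read from lists. None of the lists below had a member past limma's threshold in either direction, although with median-of-ratios scaling 1 assembly factor passed. For the counts at an unadjusted limma p under 0.05, the shares over all tested genes were 10.1% lower and 1256 of 12536 higher. Of 49 tested assembly factors, which build the complexes, 24 were above 0 and 25 below (median -0.01), with 3 lower and 0 higher at an unadjusted p under 0.05. The nearest to the threshold, chosen after its values were seen, was Coa5, an assembly factor of complex IV, with 31.6, 36.7, 42.4 and 37.4 FPKM in saline and 25.8, 26.4, 28.5 and 25.3 in morphine (-0.46 ± 0.11 SE, limma adjusted p = 0.0566). Its groups did not overlap. Of 14 tricarboxylic acid cycle enzymes 10 were below 0 (median -0.14), with 4 lower and 0 higher at an unadjusted p under 0.05, and 1 lower without saline replicate 3. Among 6 subunits and carriers outside the name rule 4 were above 0 (median 0.03; 0 at an unadjusted p under 0.05). Cyc1, the cytochrome c1 of complex III, averaged 214 ± 31.3 FPKM with saline against 212.3 ± 24.2 with morphine, and Cycs, cytochrome c itself, 63.2 ± 6.45 against 61.6 ± 7.43 (SD over 4 libraries).

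The machinery that copies and keeps mitochondrial DNA and RNA did not pass either. Of 15 genes for maintenance and transcription of the mitochondrial genome 11 were above 0 (median 0.05), with 2 higher and 0 lower at an unadjusted p under 0.05. Tfam, which packages mitochondrial DNA and starts its transcription, had 10.9, 9.07, 10.9 and 9.63 FPKM in saline and 12.8, 17.4, 10.2 and 13.7 in morphine (0.36 ± 0.16 SE, limma adjusted p = 0.224). In 3 of 4 morphine libraries it was above all saline values. Polrmt, the mitochondrial RNA polymerase, had 9.98 ± 1.73 and 10.3 ± 1.00 FPKM (SD, n = 4 each; adjusted p = 0.874). Of 15 genes for processing and stability of mitochondrial RNA 9 were above 0 (median 0.02; 0 higher and 1 lower at an unadjusted p under 0.05), and Lrpprc, which stabilises these messages, had 19.4 ± 1.58 and 20.1 ± 2.41 FPKM (SD, n = 4 each; adjusted p = 0.869). Of 10 nuclear regulators of respiratory genes 5 were below 0 (median -0.07; 0 at an unadjusted p under 0.05). Ppargc1a, the coactivator PGC-1 alpha, averaged 12.3 ± 1.98 FPKM with saline against 9.82 ± 2.71 with morphine (SD over 4 libraries; log2 change -0.32 ± 0.19 SE, limma adjusted p = 0.374). The 2 ribosomal RNA genes of mitochondrial DNA and 8 listed nuclear copies of that DNA were looked up by symbol. None was found among the rows of the expression table, so none was analysed here.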

How the data were processed

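Per the file headers, levels were deposited by the authors as FPKM in 1 table covering 8 libraries. Per the labels' protocols, reverse transcription of Trizol-extracted RNA was primed with oligo-dT and used a template-switching oligo, then PCR. The submitters' processing notes list fastp 0.18.0, Bowtie2 2.2.8, HISAT2, StringTie 1.3.1, RSEM and mm10; the sources used here do not give their roles, the annotation or how fragment length was handled, which bears on short genes. FPKM in a library share a total, so a class that takes less of it leaves more to the others.

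Symbols and positions came from GENCODE M21 (22283 of 22337 identifiers matched). Genes with at least 1 FPKM in at least 4 libraries (12536) were tested as log2(FPKM + 1), which understates changes of low genes, with limma 3.58.1 in R 4.3.3 (trend in the variance, no block, two-sided, Benjamini-Hochberg adjusted p under 0.05), after a test on simulated data. Library totals were between 480004 and 540104 FPKM, and between 12287 and 12655 genes reached 1 FPKM. Between any pair of libraries 0.546 to 1.22% of values were identical. Named genes were all mitochondrial members, complex II, limited isoforms and, per complex, the highest levels and extreme changes, and 6 genes of the other lists. Members and lists were chosen with earlier results of these data known.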

Additional observations from a re-analysis of the deposited data

Results flagged for a closer look

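Within groups of 4, a library was picked out where its gap to the nearest of the others took over 0.829 of the group's range, Dixon's 95% limit. Of 84 groups examined 9 passed, and chance passes about 1 in 20. In saline, replicate 3 was low for mt-Co2 (5283.61 FPKM, the others 7015.11 to 7073.82), for mt-Co3 (6397.92, the others 8487.31 to 8787.76), for mt-Nd4l (1137.91, the others 1692.07 to 1756.29) and for the sum of the 13 mitochondrial genes (43609.3, the others 58804.4 to 61725.3). The same library was high for Cox8b (0.57 FPKM, the others listed at 0), and saline replicate 1 was high for Cox6a2 (17.48, the others 10.52 to 11.25). In morphine, replicate 2 was low for mt-Nd2 (627.08 FPKM, the others 944.67 to 1008.5), for Ndufb8 (296.67, the others 430.15 to 449.41) and for Uqcrq (322.08, the others 486.78 to 516.27). These libraries share their values across genes, so the 9 are not separate events.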

How the results depend on the processing

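Over all genes, the calls (130 higher, 186 lower) became 8 and 9 without a filter on low values, 105 and 111 with a filter at 5 FPKM, 84 and 152 without a variance trend, 77 and 211 with mitochondrial genes removed, and 2 and 1 with the striatal markers as a covariate, an alternative chosen after seeing the data. Leaving out 1 library gave between 0 and 183 higher and between 0 and 212 lower. Mitochondrial members called lower numbered 2 with a pseudocount of 0.1, a filter at 5 FPKM or median-of-ratios scaling, 3 with equal library totals, 0 without a filter, 0 with the covariate (median change -1.06), and between 0 and 6 on leaving out 1 library, the 6 being without saline replicate 3. Without morphine replicate 2, 1 of the 13, mt-Atp8, was above 0. No setting called a nuclear member. Among single genes 1578 comparisons of a setting with the reported value kept their side of the threshold. Another 10 gained a call, 10 lost a call and 0 reversed a called direction. The 1578 include changes of sign in genes called in neither fit. The causes were not tested.

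With the replicate block the calls were 2 higher and 3 lower over all genes and 0 among the mitochondrial members. At an unadjusted limma p under 0.05, 12 of 13 were lower, beside 1230 of 12536 over all genes. Same-numbered libraries correlated at 0.05, 0.04, -0.06 and -0.20, and 0 of 4 saline and 1 of 4 morphine libraries correlated best with their own number, so the numbers were not taken as pairs. Without counts, the precision that depth sets for low genes is unknown.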
